A study of Caenorhabditis elegans with 8 samples.

Results

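The far genes encode the fatty acid and retinol binding proteins of the nematode Caenorhabditis elegans. Genes were taken by symbol, far-1 to far-8, and all 8 were found among the 46904 genes of the deposited expression table. The data are 8 RNA-seq libraries of polyadenylated RNA from whole hermaphrodites, in 4 groups of n = 2 by genotype and stage. Every group carried mutant daf-2, which encodes the insulin-like receptor and drives larvae into the arrested dauer stage when its activity is lost, and mutant hzl-1, listed in the files as C44H9.4. The genotype labelled daf-2; hzl-1 is called hzl-1 daf-2 here, as in the sample titles. The genotype labelled daf-2; aak(0); hzl-1 is called hzl-1 aak(0), and aak(0) means that aak-1 and aak-2, which encode the catalytic subunits of the energy-sensing kinase AMPK, are both lost. Synchronized worms were grown at 25 °C, and dauers were collected at 96 h and post-dauers at 192 h, which the design text gives as 96 h after a shift to the permissive temperature. Animals with functional hzl-1 or daf-2 were not analysed here.

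FAR proteins are small, helix-rich lipid carriers found in nematodes and not in their vertebrate or plant hosts. They bind fatty acids and retinol in hydrophobic cavities, and parasitic nematodes release related proteins into host tissue. In C. elegans the structure of FAR-7 has been solved, with separate pockets for fatty acids and for retinol. Dauers do not feed and live on stored fat, which AMPK is known to protect from rapid use, and feeding and reproduction follow exit from dauer. The stage comparisons ask which far transcripts differ between dauers and post-dauers of 1 genotype, and the genotype comparisons ask which differ with loss of AMPK at 1 stage.

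The 8 genes lie at 5 places in the genome (build WBcel235, spans as in the deposited files), and all are annotated as protein coding in Ensembl release 115. A head-to-head pair is formed by far-1 (WBGene00001385, III:9080371-9081179, minus strand) and far-2 (WBGene00001386, III:9081679-9082511, plus strand). These spans are 499 nt apart, with no other coding gene between them, and the annotation sets the start of far-2 later, which widens the gap to 648 nt. A cluster of 3 genes lies on chromosome V, with far-5 (WBGene00001389, V:12995569-12996836, plus strand), far-3 (WBGene00001387, V:12996787-12997524, minus strand) and far-4 (WBGene00001388, V:12998427-12999659, minus strand). The exons of far-3 and far-5 share 50 nt at their 3′ ends on opposite strands, and no source used here says whether strand was kept, so reads in that stretch may be mixed between them. The single genes are far-6 (WBGene00001390, IV:13328359-13329497), far-7 (WBGene00001391, II:319785-321445) and far-8 (WBGene00001392, III:842935-843802), all on the plus strand. How the authors assigned reads that match more than 1 member is not stated, and sequence similarity between members was not measured.

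Levels are the authors' deposited FPKM values, which count fragments per transcript length and per library total. Depth ran from 13.99 to 26.98 M recovered reads, and the Spearman correlation of replicates ran from 0.935 to 0.979. The first hzl-1 daf-2 dauer library stood apart in some dauer-enriched genes. The median FPKM of 7 such genes was 11.12 there, against 919 in the second library of the group and 1570 and 1599 in hzl-1 aak(0) dauers, while 2 of the 7, scl-12 and hsp-12.6, read 1653 and 1228 FPKM there and 1534 and 2198 FPKM in the second library. Its rRNA share was the highest at 12.8% of reads, followed by 9.61% in the first hzl-1 aak(0) dauer library. The lowest replicate correlation was that of hzl-1 aak(0) post-dauers, where 15.7% of genes lay over 1 log2 unit apart, against 10.7% in hzl-1 daf-2 dauers. Called far changes and list counts that use the first hzl-1 daf-2 dauer library are also given without it, for some lists as medians. The group means and sums include it. The mutated genes checked no label, since a gene-level value need not show a deletion within a gene. Over the 8 libraries hzl-1 was at 0.47 to 3.28 FPKM. In hzl-1 daf-2 against hzl-1 aak(0) dauers, aak-1 was at 3.1 and 3.19 against 14.7 and 9.99 FPKM, and aak-2 at 35.6 and 43.6 against 37.9 and 49.2 FPKM. In post-dauers aak-1 was at 8.75 and 8.59 against 7.16 and 7.72 FPKM, and aak-2 at 20.2 and 18.4 against 9.85 and 9.4 FPKM.

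Transcripts of the family were dominated by far-1 in dauers and by far-2 in post-dauers, in both genotypes. In hzl-1 daf-2 dauers, far-1 made up 71.97% and 72.8% of the summed far FPKM, and far-2 made up 1.59% and 1.60%. In their post-dauers the share of far-1 was 20.5% and 18.9%, and that of far-2 was 75.8% and 78.6%. In hzl-1 aak(0) dauers far-1 took 70.9% and 72.4% and far-2 took 7.49% and 5.06%, and in hzl-1 aak(0) post-dauers the shares were 18.6% and 20.0% for far-1 and 78.0% and 77.6% for far-2. The next largest share in dauers belonged to far-7, with 12% to 17.5% in the 4 dauer libraries and at most 0.377% in the 4 post-dauer libraries. The summed far FPKM was 3186 ± 782 (SD, n = 2) in hzl-1 daf-2 dauers and 5797 ± 247 in their post-dauers, and 4374 ± 674 in hzl-1 aak(0) dauers and 11313 ± 220 in their post-dauers.

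**Figure D1:**
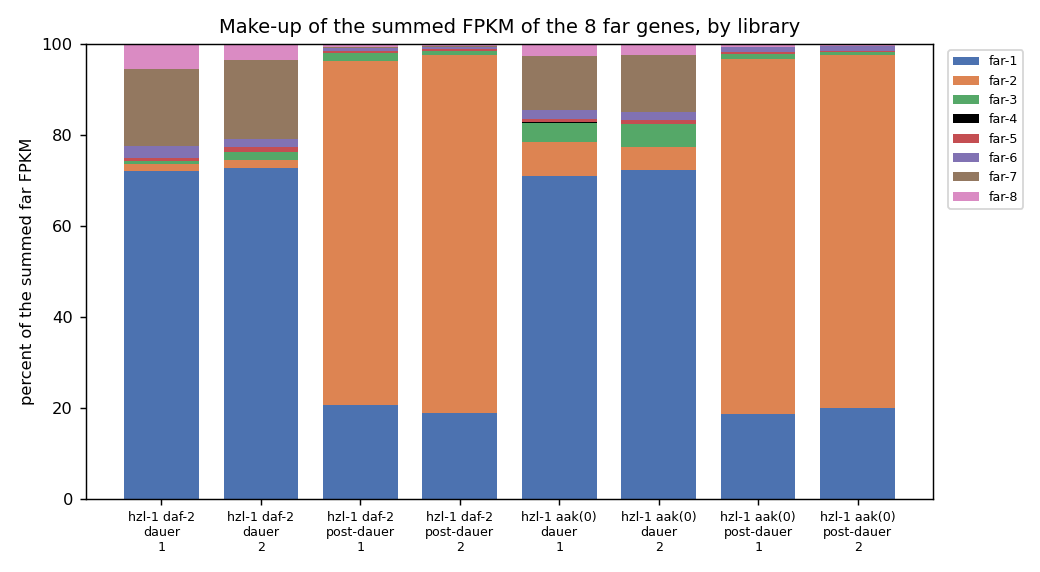
Stacked bars give each far gene's percent of the summed FPKM of the 8 far genes, with 1 bar per library. The far-1 part spans 70.9% to 72.8% in the 4 dauer libraries and 18.6% to 20.5% in the 4 post-dauer libraries, where far-2 takes 75.8% to 78.6%.

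The members spanned a wide range, from far-4 at 0.28 FPKM to far-2 at 8899 FPKM in the same hzl-1 aak(0) post-dauer library. Genes had to average 1 FPKM or more to be tested, and 7 members did while far-4, with a mean of 0.814 FPKM, did not. In hzl-1 daf-2 dauers far-4 read 1.39 and 2.06 FPKM, from 12 and 22 reads. In their post-dauers it read 0.48 and 0.60 FPKM from 4 and 7 reads, in hzl-1 aak(0) dauers 0.65 and 0.68 FPKM from 9 and 9 reads, and in hzl-1 aak(0) post-dauers 0.37 and 0.28 FPKM from 4 and 4 reads. The 2 hzl-1 daf-2 dauer libraries held the highest far-4 values, on few reads. Tests were run with limma on log2(FPKM + 1) over all 15365 genes that passed the filter, and genes with a Benjamini-Hochberg adjusted p under 0.05 were called.

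**Figure D2:**
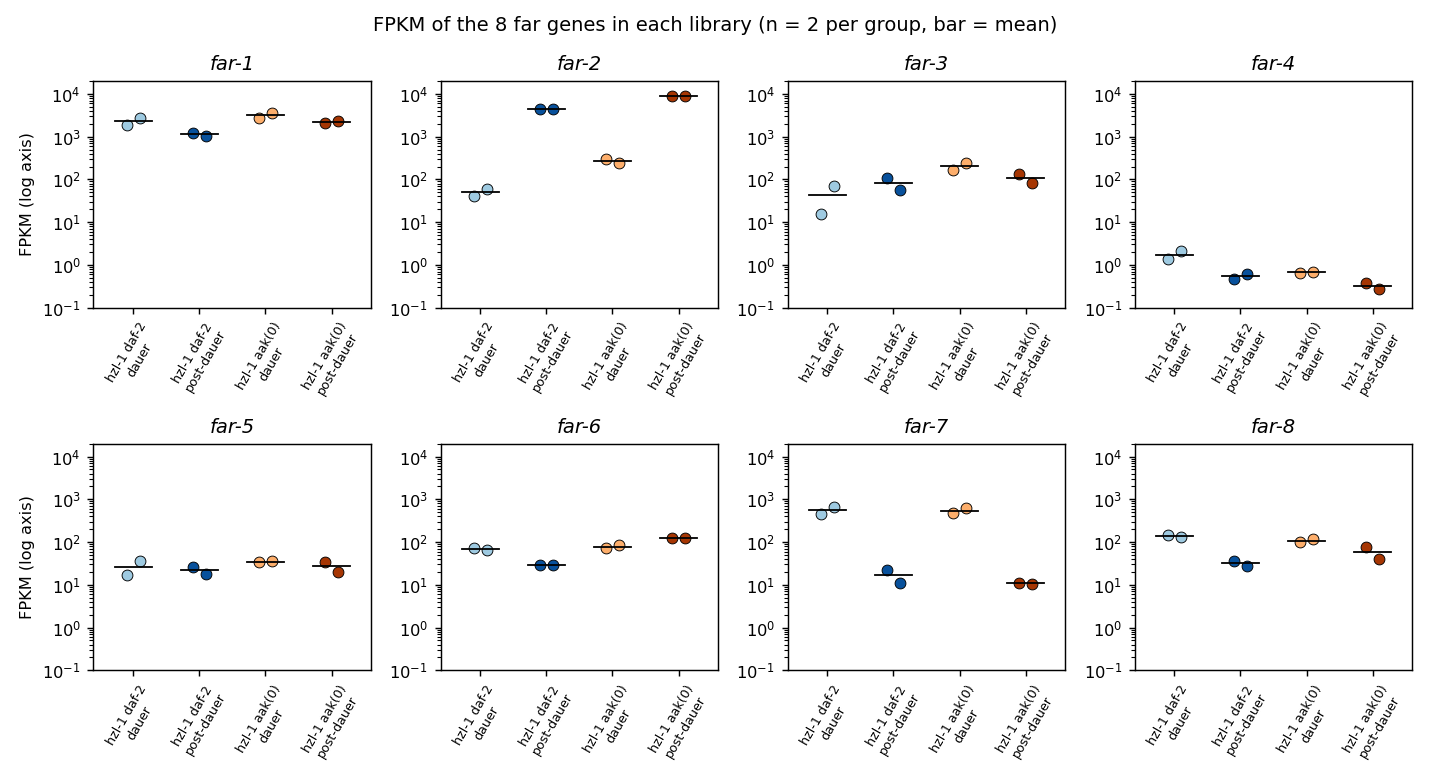
Points give the FPKM of each far gene in each library on a log axis, and bars give the group mean (n = 2 libraries per group). In post-dauers far-2 lies at 4419 FPKM or higher and far-7 at 22.5 FPKM or lower, while in dauers far-2 lies at or below 292 FPKM and far-7 at or above 445 FPKM.

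From dauer to post-dauer in the hzl-1 daf-2 background, far-2 rose 87.9-fold, far-7 fell 32.8-fold, and far-8, far-6 and far-1 fell by smaller amounts, all as ratios of mean FPKM. Thus 5 of 7 tested members were called, 1 higher and 4 lower, where 67.3% of all tested genes were called in this comparison, 39.4% higher and 27.8% lower. The number of far genes called is therefore not set apart from the background, and the sizes of the single changes are what follow. On this scale the median of all tested genes was 0.34 (log2), and 58.6% of the called genes were higher, against 48.4% with edgeR on recovered reads, where the median gene was at -0.01 and 68.5% of tested genes were called.

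The far-2 gene was at 41.8 and 59.9 FPKM in hzl-1 daf-2 dauers and at 4525 and 4419 FPKM in their post-dauers. In hzl-1 aak(0) animals it was at 292 and 245 FPKM in dauers and at 8706 and 8899 FPKM in post-dauers. No group's values overlapped those of another, and the order from low to high was hzl-1 daf-2 dauers, hzl-1 aak(0) dauers, hzl-1 daf-2 post-dauers and hzl-1 aak(0) post-dauers. Its rank among all genes by FPKM moved from 2630 and 2202 in hzl-1 daf-2 dauers to 19 and 20 in their post-dauers, and from 477 and 625 to 3 and 7 in hzl-1 aak(0) animals. In the last group far-2 alone took 0.412% and 0.436% of all reads. The stage change was 6.45 ± 0.20 (log2 ± SE; limma adjusted p = 5.63e-06) in hzl-1 daf-2 and 5.03 ± 0.20 (limma adjusted p = 3.80e-05) in hzl-1 aak(0), where the ratio of means was 32.8. Without the first hzl-1 daf-2 dauer library, the change in hzl-1 daf-2 was 6.198 (limma adjusted p = 7.12e-05). The authors' deposited table, which takes dauer minus post-dauer, lists far-2 at -6.25 and -5.10 (log2) in the 2 backgrounds. It also has a column headed unshrunken, and the authors' values given here and below are not from that column.

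Its neighbour far-1 went the other way in hzl-1 daf-2, from 1895 and 2723 FPKM in dauers to 1224 and 1062 FPKM in post-dauers. In hzl-1 aak(0) it stood at 2765 and 3511 FPKM in dauers and at 2074 and 2293 FPKM in post-dauers. Dauers and post-dauers did not overlap in either background, while hzl-1 daf-2 dauers overlapped hzl-1 aak(0) post-dauers. The change was -0.99 ± 0.23 (limma adjusted p = 0.00709) in hzl-1 daf-2 and -0.51 ± 0.23 (limma adjusted p = 0.0959) in hzl-1 aak(0), and the second was not called. The change in hzl-1 daf-2 was -1.26 (limma adjusted p = 0.00501) without the first hzl-1 daf-2 dauer library. Without the second hzl-1 daf-2 post-dauer library it was -0.89 with a limma adjusted p of 0.0531, and it was called under the other 16 alternatives tried. As a ratio within each library, far-2 over far-1 FPKM was 0.0221 and 0.0220 in hzl-1 daf-2 dauers, 3.70 and 4.16 in their post-dauers, 0.106 and 0.0699 in hzl-1 aak(0) dauers and 4.198 and 3.88 in hzl-1 aak(0) post-dauers. The 2 post-dauer groups thus had overlapping ratios and the 2 dauer groups did not.

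The fatty acid and retinol binder far-7 was high in dauers and low in post-dauers. It was at 445 and 654 FPKM in hzl-1 daf-2 dauers and at 22.5 and 10.99 FPKM in their post-dauers, a change of -5.01 ± 0.35 (log2; limma adjusted p = 5.09e-05). In hzl-1 aak(0) it was at 467 and 614 FPKM in dauers and at 11.2 and 10.4 FPKM in post-dauers, a change of -5.51 ± 0.35 (limma adjusted p = 1.26e-04) and a ratio of means of 50.0. All dauer libraries lay far above all post-dauer libraries, and the genotypes overlapped at each stage. Of the 8 members, far-7 had the lowest post-dauer level relative to its own dauer level in both backgrounds.

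The far-8 gene also fell with stage, by less. Its levels were 145 and 130.4 FPKM in hzl-1 daf-2 dauers, 36.8 and 28.0 FPKM in their post-dauers, 99.9 and 117 FPKM in hzl-1 aak(0) dauers and 74.8 and 40.8 FPKM in hzl-1 aak(0) post-dauers. No group's values overlapped those of another, and the order from high to low was hzl-1 daf-2 dauers, hzl-1 aak(0) dauers, hzl-1 aak(0) post-dauers and hzl-1 daf-2 post-dauers. The change was -2.06 ± 0.29 (limma adjusted p = 9.11e-04) in hzl-1 daf-2 and -0.95 ± 0.29 (limma adjusted p = 0.0318) in hzl-1 aak(0). The second call was kept under 10 of 17 alternatives, with limma, edgeR and DESeq2 adjusted p from 0.0055 to 0.155, and it was lost without either hzl-1 daf-2 dauer library (adjusted p = 0.0503 and 0.0502), without either hzl-1 aak(0) dauer library (0.0881 and 0.155) and without the second hzl-1 aak(0) post-dauer library (-0.52, 0.0921). In hzl-1 daf-2, far-7 and far-8 changed by -5.29 and -1.99 (limma adjusted p = 5.29e-04 and 0.00792) without the first dauer library.

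The far-6 gene changed in opposite directions in the 2 backgrounds. It went from 72.7 and 65.4 FPKM in hzl-1 daf-2 dauers to 28.9 and 28.5 FPKM in their post-dauers, and from 72.3 and 84.4 FPKM in hzl-1 aak(0) dauers to 123 and 124 FPKM in hzl-1 aak(0) post-dauers. Dauers of the 2 genotypes overlapped, and their post-dauers lay on either side of them. The changes were -1.24 ± 0.14 (limma adjusted p = 3.97e-04) and 0.65 ± 0.14 (limma adjusted p = 0.00912), or 2.41-fold lower and 1.58-fold higher by group means. The fall was -1.16 (limma adjusted p = 0.00192) without the first hzl-1 daf-2 dauer library. Among all 15365 tested genes, 59 (0.384%) were called in both stage comparisons in opposite directions. The rise in hzl-1 aak(0) was called under 16 of 17 alternatives and lost without the first hzl-1 aak(0) dauer library (0.54, limma adjusted p = 0.0697). In the authors' deposited table (dauer minus post-dauer), far-6 is listed at 1.51 with an adjusted p of 4.08e-07 in hzl-1 daf-2 and at -0.74 with an adjusted p of 0.0573 in hzl-1 aak(0), so the second is not under 0.05 there.

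In the hzl-1 aak(0) background as a whole, 4 of 7 tested members were called with stage, far-2 and far-6 higher and far-7 and far-8 lower, where 52.9% of all tested genes were called, 25.9% higher and 27% lower. With edgeR 54.8% of tested genes were called. Without the first hzl-1 aak(0) dauer library this count was 2. The share of tested genes whose dauer and post-dauer libraries did not overlap was 84.4% in hzl-1 daf-2 and 77.5% in hzl-1 aak(0), so a lack of overlap is the common case here.

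**Figure D3:**
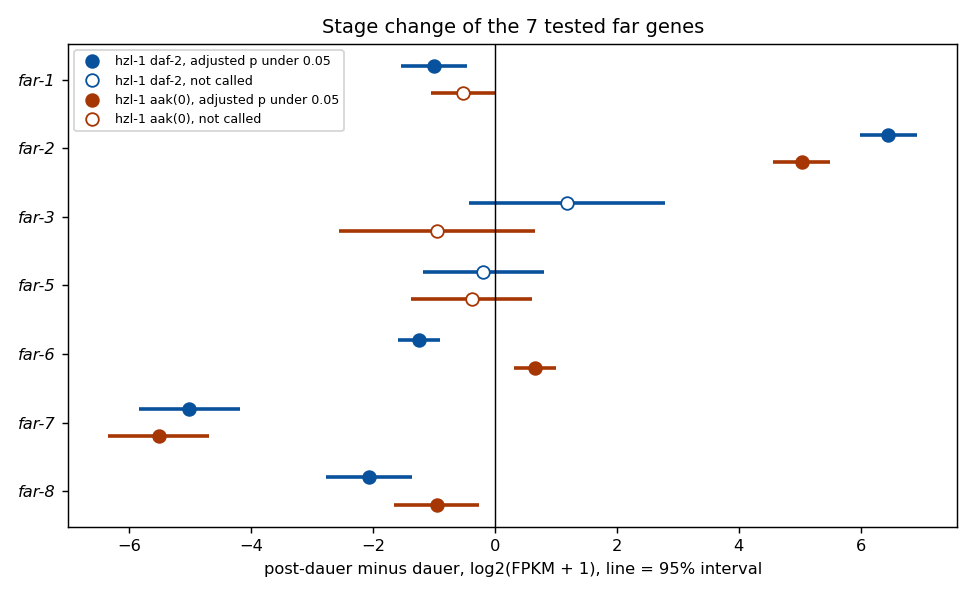
Points give the post-dauer minus dauer difference on the log2(FPKM + 1) scale from limma for the 7 tested far genes in each background, lines give the 95% interval, and filled points have an adjusted p under 0.05. In both backgrounds far-2 lies at 5.03 or higher and far-7 at -5.01 or lower, while far-6 lies at -1.24 in hzl-1 daf-2 and at 0.65 in hzl-1 aak(0).

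Of the chromosome V cluster, far-3 and far-5 had no called stage change in the limma fit of all libraries, and far-4 was not tested in it. For far-3 the levels were 15.9 and 68.3 FPKM in hzl-1 daf-2 dauers and 107 and 55.03 FPKM in their post-dauers, which overlap. They were 167 and 243 FPKM in hzl-1 aak(0) dauers and 134 and 81.5 FPKM in their post-dauers, which do not. The changes were 1.19 ± 0.67 (limma adjusted p = 0.158) and -0.94 ± 0.67 (limma adjusted p = 0.278), and the replicate spread of the first dauer group was wide. Without the second hzl-1 daf-2 dauer library the first change was 2.21 (limma adjusted p = 0.0147), and without the first it was 0.17 (0.792), so the 2 dauer libraries set it. The authors' deposited table lists far-3 at 0.92 (dauer minus post-dauer) with an adjusted p of 0.0178 in hzl-1 aak(0).

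For far-5 the levels were 16.8 and 36.1 FPKM in hzl-1 daf-2 dauers, 26.6 and 17.5 FPKM in their post-dauers, 33.6 and 35.2 FPKM in hzl-1 aak(0) dauers and 34.5 and 19.9 FPKM in their post-dauers. The stage groups overlapped in both backgrounds, and the changes were -0.19 ± 0.42 and -0.38 ± 0.42 (limma adjusted p = 0.710 and 0.479). The reads behind them were 125 and 335, 129 and 161, 388 and 432, and 285 and 237 in the same order of groups. Reads per FPKM, relative to the median gene of a library, varied 1.65-fold for far-5 over the libraries and at most 1.20-fold for the other members. On recovered reads, edgeR gave far-5 a stage change of -0.95 in hzl-1 daf-2 (adjusted p = 0.0261), where the unit, the test and the scaling all differ from the limma fit. With RLE scaling edgeR gave -0.83 (adjusted p = 0.0352), and DESeq2 gave -0.81 (adjusted p = 0.0438). The authors' deposited table lists it at 0.81 (dauer minus post-dauer) with an adjusted p of 0.0750. For far-4, limma without the filter gave -0.81 (adjusted p = 0.00639) in hzl-1 daf-2 and -0.33 (adjusted p = 0.152) in hzl-1 aak(0), and edgeR gave -1.96 (adjusted p = 0.00950) in hzl-1 daf-2 and -1.11 (adjusted p = 0.130) in hzl-1 aak(0), on the few reads given above.

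Loss of AMPK went with higher far-2 and far-3 in dauers. Between hzl-1 aak(0) and hzl-1 daf-2 dauers, far-2 was 5.28-fold and far-3 4.87-fold higher by mean FPKM. Thus 2 of 7 tested members were called, both higher, where 29.1% of all tested genes were called, 25.5% higher and 3.6% lower. The deposited scale moved the median gene by 0.41 (log2) in this comparison, against 0.05 with edgeR, and 87.6% of called genes were higher, against 64.9% with edgeR and 48.2% after centring on the median gene. The far-2 difference was 2.40 ± 0.20 (limma adjusted p = 5.59e-04), or 1.99 above the median gene, and it was called under all 17 alternatives. For far-3 the difference was 2.56 ± 0.67 (limma adjusted p = 0.0313), or 2.16 above the median gene, and it was called under 10 of 17 alternatives.

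Both far-3 values in hzl-1 aak(0) dauers lay above both in hzl-1 daf-2 dauers. Without the first hzl-1 daf-2 dauer library, which held the lowest far-3 value, the far-3 difference was 1.55 (limma adjusted p = 0.0985), and 1 member, far-2, remained called, at 2.14 (0.00220). It also missed 0.05 without either hzl-1 daf-2 post-dauer library (0.0541 and 0.0539), which alters only the shared estimate of spread, and without either hzl-1 aak(0) dauer library (2.84 with 0.113, and 2.29 with 0.167). For far-1, far-5, far-6, far-7 and far-8 the differences were 0.46, 0.46, 0.18, -0.01 and -0.34, and none was called in the limma fit as deposited (adjusted p from 0.174 to 0.992). Relative to the median gene these became 0.05, 0.05, -0.23, -0.42 and -0.75. With each library centred on its median gene, limma called far-8 lower (-0.89, adjusted p = 0.0388), and without the filter it called far-4 lower (-0.70, adjusted p = 0.0292). The 95% interval of the far-7 difference ran from -0.84 to 0.82 (log2), so the data allow differences of that size in either direction. On recovered reads edgeR called 4 of 8 members, far-2 and far-3 higher and far-4 (-1.83, adjusted p = 0.0301) and far-8 (-0.80, adjusted p = 0.0383) lower, where 22.8% of its 17050 tested genes were called.

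In post-dauers, far-6 was 4.30-fold and far-2 1.97-fold higher in hzl-1 aak(0) than in hzl-1 daf-2. Again 2 of 7 tested members were called, both higher, where 4.66% of all tested genes were called, 4.22% higher and 0.443% lower. Of the called genes 90.5% were higher, against 81.2% with edgeR and 71.2% after centring. The far-6 difference was 2.07 ± 0.14 (limma adjusted p = 0.00189), from 28.7 ± 0.262 to 123 ± 0.686 FPKM (mean ± SD, n = 2), and it was called under all 17 alternatives. The far-2 difference was 0.98 ± 0.20 (limma adjusted p = 0.0437), from 4472 ± 74.9 to 8802 ± 137 FPKM. That call was kept under 3 of 17 alternatives, with adjusted p from 0.0197 to 0.225, and edgeR, which called 4.17% of genes, gave 0.87 (adjusted p = 0.1499).

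The genotypes did not overlap in post-dauers for far-1 either, at 1143 ± 114.6 against 2183 ± 155 FPKM, a difference of 0.94 ± 0.23 (limma adjusted p = 0.0721) that was not called. Leaving out either hzl-1 daf-2 dauer library, which enters only through the shared spread, gave the same difference with limma adjusted p of 0.0414 and 0.0413. For far-3, far-5, far-7 and far-8 the differences were 0.44, 0.27, -0.51 and 0.77 (limma adjusted p = 0.752, 0.752, 0.447 and 0.211). The far-7 interval ran from -1.34 to 0.32 (log2). The share of tested genes whose genotypes did not overlap was 73.7% in dauers and 50.5% in post-dauers.

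**Figure D4:**
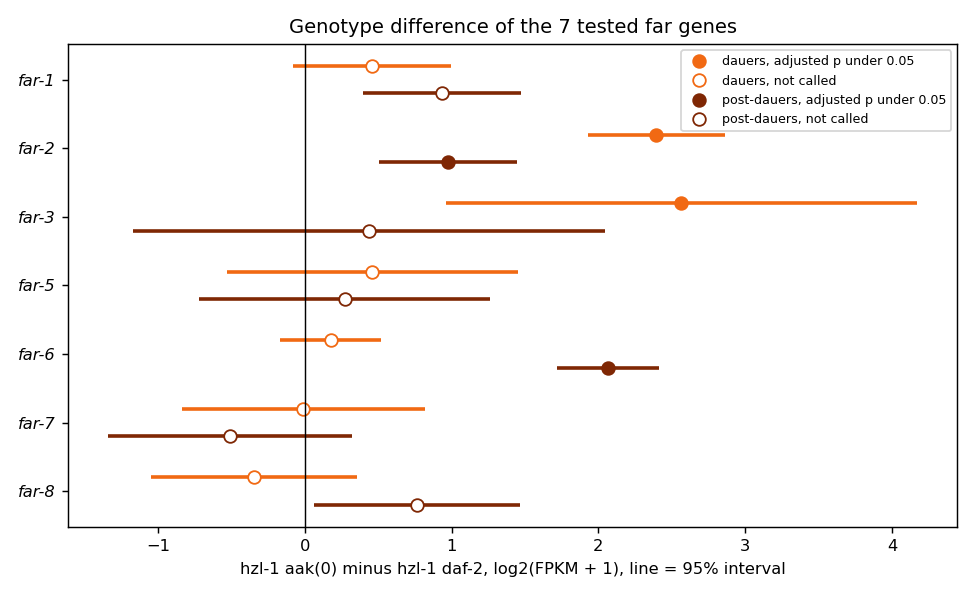
Points give the hzl-1 aak(0) minus hzl-1 daf-2 difference on the log2(FPKM + 1) scale from limma for the 7 tested far genes at each stage, lines give the 95% interval, and filled points have an adjusted p under 0.05. The filled points are far-2 and far-3 in dauers, at 2.40 and 2.56, and far-2 and far-6 in post-dauers, at 0.98 and 2.07.

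Whether the stage change itself differed between genotypes was tested as an interaction, the change in hzl-1 aak(0) minus that in hzl-1 daf-2. Of the 7 tested members, far-6 was called with a higher and far-2 with a lower interaction, where 11.3% of all tested genes were called, 3.54% higher and 7.80% lower. Of the called genes 31.2% were higher, against 40.2% with edgeR, 51.1% after centring and 14.7% after rescaling to equal sums, and the median gene was at -0.34. For far-6 the interaction was 1.89 ± 0.20 (limma adjusted p = 0.00406), or 2.23 above the median gene, and it was called under all 16 alternatives. For far-2 it was -1.42 ± 0.28 (limma adjusted p = 0.0250), or 1.08 below the median gene, and it was called under 7 of 16 alternatives, with edgeR, which called 13% of genes, at -1.08 (adjusted p = 0.138). Without the first hzl-1 daf-2 dauer library the 2 values were 1.81 and -1.16 (limma adjusted p = 0.00968 and 0.0322).

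The far-8 interaction was 1.11 ± 0.42 with limma (adjusted p = 0.131) and 1.44 with edgeR (adjusted p = 0.0251), a smaller fall in hzl-1 aak(0). It was called under 5 of 16 alternatives, which were edgeR with either scaling, DESeq2, limma centred on the median gene (1.42, adjusted p = 0.0419) and limma without the second hzl-1 aak(0) post-dauer library (1.54, adjusted p = 0.0369). For far-3 it was -2.13 ± 0.95 (limma adjusted p = 0.187), for far-1 0.48 (0.344), for far-5 -0.19 (0.844) and for far-7 -0.50 (0.514). The fall of far-7 was thus not shown to differ between the genotypes.

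Tissue markers moved with these changes, and their part in them was not tested. The counts below are of called genes. Over all tested genes, 39.4% were called higher and 27.8% lower with stage in hzl-1 daf-2, and 25.9% and 27% in hzl-1 aak(0). FPKM is per library total, so in whole animals a tissue's share of the animal and the RNA per cell of that tissue cannot be told apart. Of 8 neuronal genes, 8 fell with stage in hzl-1 daf-2 and 7 in hzl-1 aak(0), with summed FPKM of 1965 to 2112 and 1200 to 1467 in dauers and 139 to 182 and 181 to 196 in post-dauers, the direction of far-7 and far-8. Other lists also held genes that fell. Of 5 pharyngeal muscle genes 5 and 4 fell, with sums of 171 to 278 and 108 to 117 in dauers and 34.9 to 37.1 and 42.5 to 48.03 in post-dauers. Of 7 dauer-enriched genes 6 and 7 fell, with sums of 2919 to 6840 and 9631 to 11108 in dauers and 111 to 251 and 14.7 to 35.4 in post-dauers. Of 8 body wall muscle genes 4 and 6 were called lower and none higher, with sums of 966 to 1218 and 1924 to 2042 in dauers and 1001 to 1252 and 1619 to 1884 in post-dauers. The sums thus overlapped between stages in hzl-1 daf-2. Of 3 tested glial genes 2 fell in each background, with sums over 5 genes of 11.4 to 13.8 and 11.4 to 16.4 in dauers and 2.28 to 2.61 and 2.21 to 4.35 in post-dauers. Of 8 germline genes, 8 rose in both backgrounds, from sums of 152 to 214 and 356 to 357 in dauers to 1323 to 1427 and 978 to 1081 in post-dauers, the direction of far-2. The sum of 8 hypodermal and cuticle genes rose from 71.8 to 142 in hzl-1 daf-2 dauers and 272 to 293 in hzl-1 aak(0) dauers to 871 to 1031 and 1185 to 1371 in post-dauers, with 5 and 2 genes called higher and 1 lower in each. Most of the post-dauer sum was col-19, an adult collagen gene. Without it the sum was 71.4 to 142 and 265 to 293 in dauers and 132 to 205 and 189 to 201 in post-dauers, so it overlapped between stages in hzl-1 daf-2 and was lower in post-dauers in hzl-1 aak(0), where the list median was -0.19. The sum of 7 intestinal genes ran from 459 to 605 and 820 to 906 in dauers and from 809 to 883 and 1013 to 1100 in post-dauers. This list was split, with 4 genes (act-5, ges-1, mtl-2 and vha-6) called higher and 2 (elt-2 and ifb-2) lower in hzl-1 daf-2. In hzl-1 aak(0) 3 of them (act-5, ges-1 and vha-6) were higher and the same 2 lower. Dauers lacking AMPK were thus higher than the other dauers in the germline, hypodermal, intestinal, body wall muscle and dauer-enriched sums, as they were in far-2 and far-3, and lower in the neuronal and pharyngeal muscle sums. Among the called genes in that comparison, 4 germline genes were higher and 1, htp-3, lower. There 4 body wall muscle, 4 intestinal, 3 hypodermal and 1 glial genes were higher, and 2 pharyngeal muscle genes were lower. Of 8 neuronal genes limma called 0 (4 at an unadjusted p under 0.05) and edgeR 2, and the list median was -0.52. The neuronal gene unc-119 went the other way, at 29.7 and 44.1 FPKM in hzl-1 daf-2 dauers against 50.7 and 55.2 FPKM in hzl-1 aak(0) dauers. For rab-3 the dauers of the genotypes overlapped. Over all tested genes 25.5% were called higher and 3.6% lower in the genotype comparison of dauers. When the first hzl-1 daf-2 dauer library was left out, the median stage change in hzl-1 daf-2 was 0.18 (log2) over all genes. It was -3.52 for neuronal, -2.82 for pharyngeal muscle, -7.85 for dauer-enriched, -0.52 for body wall muscle and -1.71 for glial genes. For germline, hypodermal and intestinal genes it was 2.97, 1.23 and 1.46. Without that library, the median genotype difference in dauers was 0.29 over all genes. It was 1.18 for germline, 0.70 for body wall muscle, 1.03 for dauer-enriched, 1.44 for hypodermal and 0.88 for intestinal genes. For neuronal and pharyngeal muscle genes it was -0.61 and -0.46. These medians do not show which calls were kept. For body wall muscle and dauer-enriched genes, the called genes without that library were not the same as in the fit of all libraries. This held for stage in hzl-1 daf-2 and for genotype in dauers. In the fit of all libraries limma called 0 dauer-enriched genes for genotype in dauers (5 at an unadjusted p under 0.05) and edgeR 0. Of the neuronal, germline, hypodermal and intestinal genes, bli-1 was listed at 0 in the first hzl-1 daf-2 dauer library, and no other was at 0 in any library.

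Other lipid carriers rose with stage, as far-2 did in both backgrounds and most tested far genes did not. The lbp genes encode fatty acid binding proteins. They were called higher in 9 of 9 cases in hzl-1 daf-2 and in 6 of 9 in hzl-1 aak(0), where 39.4% and 25.9% of all genes were higher. Their median changes were 1.95 and 1.25 beside 0.34 and 0.02 for all genes. The most abundant, lbp-9, was at 259 ± 84.3 and 1481 ± 144 FPKM in hzl-1 daf-2 dauers and post-dauers and at 460 ± 4.86 and 1447 ± 255 FPKM in hzl-1 aak(0). The next, lbp-2, was at 153 ± 85.3 and 612 ± 36.5 FPKM and at 302 ± 47.3 and 1212 ± 195 FPKM in the same order. Summed far FPKM exceeded summed lbp FPKM in every library, where the lbp sum was 503 to 865 in hzl-1 daf-2 dauers, 3169 to 3463 in their post-dauers, 1324 to 1535 in hzl-1 aak(0) dauers and 4129 to 4195 in hzl-1 aak(0) post-dauers. In dauers 4 of 9 lbp genes were higher in hzl-1 aak(0), where 25.5% of all genes were, with a median of 1.08 beside 0.41 for all genes. In post-dauers 1 was, lbp-1 (1.83, limma adjusted p = 0.0144), where 4.22% of all genes were. In the interaction lbp-7 was called lower (-2.51, limma adjusted p = 0.0285). Of the 9, 7 rose with stage in hzl-1 daf-2 and 3 were higher in hzl-1 aak(0) dauers without the first hzl-1 daf-2 dauer library, and lbp-7 was then not called in the interaction (-2.10, limma adjusted p = 0.0580).

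Yolk genes rose most and differed from far-2 in their genotype order. The 6 vit genes encode yolk lipoproteins, dsc-4 encodes the microsomal triglyceride transfer protein that loads lipoproteins with lipid, and rme-2 encodes the yolk receptor of the oocyte. All 8 rose with stage in hzl-1 daf-2, and 7 rose in hzl-1 aak(0), where dsc-4 was at -0.56 (limma adjusted p = 0.122). Over all tested genes 39.4% and 25.9% were called higher. Their summed FPKM was 14.8 to 19.9 in hzl-1 daf-2 dauers and 94.6 to 100.5 in hzl-1 aak(0) dauers, and 19857 to 21661 and 4037 to 5235 in the post-dauers. The hzl-1 aak(0) post-dauers thus held the higher far-2 level and the lower yolk sum of the 2 genotypes. For example vit-6 was at 5519 ± 127 FPKM in hzl-1 daf-2 post-dauers and at 1203 ± 299 FPKM in hzl-1 aak(0) post-dauers (-2.22, limma adjusted p = 0.0695), and vit-2 was at 5250 ± 353 and 1261 ± 271 FPKM (-2.07, limma adjusted p = 0.0705). Of the 8 genes vit-1, vit-3, vit-4 and vit-5 were called lower in hzl-1 aak(0) post-dauers (-2.75, -2.67, -2.47 and -2.04, limma adjusted p from 0.00150 to 0.0227), and 6 had a called lower interaction, these and dsc-4 and rme-2. Over all tested genes 0.443% were called lower in hzl-1 aak(0) post-dauers and 7.80% in the interaction. With the first hzl-1 daf-2 dauer library left out, the list median was 10.7 for stage in hzl-1 daf-2 and -2.69 in the interaction. The medians over all genes were then 0.18 and -0.21. Several vit genes are near-identical copies, so the split of reads among them is uncertain.

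**Figure D5:**
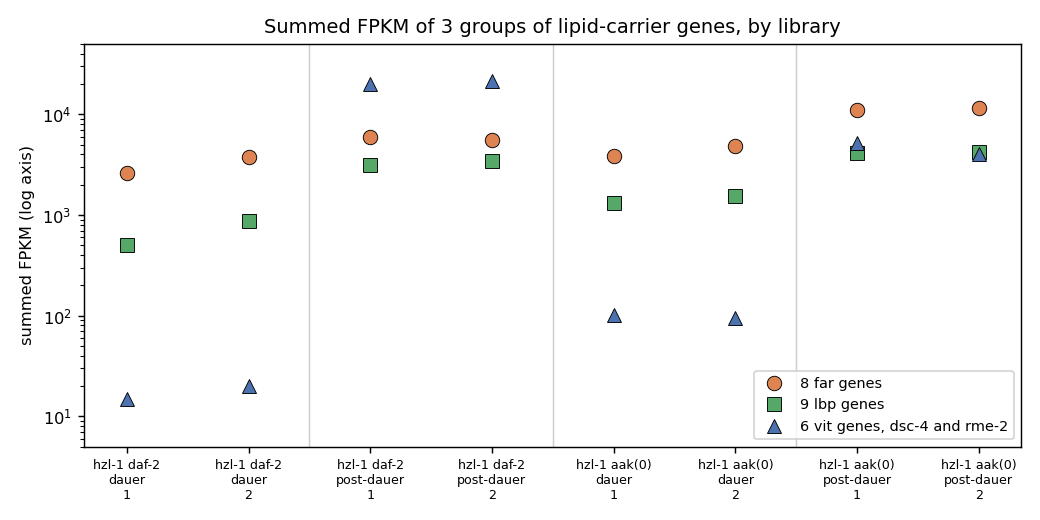
Points give the summed FPKM, on a log axis, of the 8 far genes, the 9 lbp genes and the 6 vit genes with dsc-4 and rme-2, in each library. The far sum lies above the lbp sum in all 8 libraries, and the yolk sum goes from 14.8 to 19.9 in hzl-1 daf-2 dauers to 19857 to 21661 in their post-dauers.

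Genes for making, lengthening and releasing fatty acids, the ligands of such carriers, were counted in the same way. Of 16 desaturase and elongase genes, 12 rose and 1 fell with stage in hzl-1 daf-2, 7 rose and 2 fell in hzl-1 aak(0), and 11 were higher in hzl-1 aak(0) dauers, with medians of 1.39, 0.65 and 1.21. Over all genes 39.4%, 25.9% and 25.5% were higher in these comparisons, with medians of 0.34, 0.02 and 0.41. Between genotypes in post-dauers 0 of the 16 were called by limma or edgeR, with 3 at an unadjusted p under 0.05 in each. When the first hzl-1 daf-2 dauer library was left out, 11 rose and 2 fell in hzl-1 daf-2, and 9 were higher in hzl-1 aak(0) dauers, where 33.5% rose, 30.9% fell and 16.5% were higher over all genes. The most abundant were fat-2, a desaturase, which rose in both backgrounds (1.18 and 0.95, limma adjusted p = 0.00508 and 0.0168), and fat-1, an omega-3 desaturase, which fell in both (-0.90 and -0.57, limma adjusted p = 0.00136 and 0.0143). The 5 genes with a called lower interaction were elo-1, elo-2, elo-5, elo-6 and fat-6, where 7.80% of all tested genes were called lower. The list median in the interaction was -1.18, and -0.90 without that library, beside -0.34 and -0.21 for all genes. Of 8 synthesis genes and regulators, 4 rose and 1 fell in hzl-1 daf-2 and 1 rose and 1 fell in hzl-1 aak(0), and without that library the 1 that fell in hzl-1 daf-2, mdt-15, was not called (-0.69, limma adjusted p = 0.0669). Here pod-2, acetyl-CoA carboxylase, had a called lower interaction (-1.62, limma adjusted p = 0.0155). The nuclear receptor gene nhr-49 changed by 0.26 and -0.17 with stage (limma adjusted p = 0.231 and 0.462), and the Mediator subunit gene mdt-15 fell by 0.71 and 0.67 (limma adjusted p = 0.0213 and 0.0330). Of 10 lipase genes, 4 rose and 2 fell in hzl-1 daf-2 and 3 rose and 2 fell in hzl-1 aak(0), with lipl-5 the most abundant (1.93 and 2.49, limma adjusted p = 1.61e-04 and 1.81e-04) and lipl-1 and lipl-4 lower in the interaction. These lipase shares are near those over all genes, of which 39.4% rose and 27.8% fell in hzl-1 daf-2 and 25.9% rose and 27% fell in hzl-1 aak(0). The stage counts in hzl-1 daf-2 were again 4 and 2 without the first dauer library of that genotype, and lipl-1 and lipl-4 were then not called in the interaction (-1.62 and -1.48, limma adjusted p = 0.0580 and 0.0651).

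Profiles nearest to each member were taken over the 8 libraries as the root mean square difference of log2(FPKM + 1), each gene centred on its own mean, among 7621 tested genes with a gene name. The closest to far-1 were ttr-16 (0.0922), scrm-1 (0.110) and ttr-41 (0.121), a phospholipid scramblase gene between 2 transthyretin-like genes. The closest to far-2 lay farther off, at 0.365 for the major sperm protein gene msp-152, 0.407 for the collagen gene col-142 and 0.471 for cpg-9, and msp genes are near-identical copies whose reads may be split. For far-3 they were lpr-3 (0.191), a lipocalin-related gene, wrt-10 (0.233) and txdc-12.1 (0.237), and for far-5 they were the glutaminase gene glna-1 (0.198), prx-12 (0.203) and the phosphofructokinase gene pfk-1.1 (0.220). For far-6 they were tir-1 (0.256), the stomatin gene sto-1 (0.258) and lin-33 (0.291). For far-7 they were cri-1 (0.229), dmd-10 (0.249) and tyr-3 (0.387), and for far-8 they were zig-7 (0.121), the kinase gene dyf-5 (0.128) and bro-1 (0.144).

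The head-to-head pair had unlike profiles. Counted from far-1, far-2 was in place 7542 of the 7621 genes, at a distance of 3.32. Counted from far-3, far-5 was in place 501, at 0.825, and the pair shares 3′ exon sequence as described above. The members closest to each other were far-1 and far-5 (0.440), far-1 and far-6 (0.506) and far-1 and far-8 (0.565), and the pair farthest apart was far-2 and far-7 (5.60).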

How the data were processed

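The authors deposited FPKM for all 8 libraries in 1 table, and, per genotype, a table of count signal divided by a size factor, with log2 fold changes (dauer minus post-dauer), p-values and a test statistic score, per the file headers. The submitters' processing notes name the build WBcel235, RSEM, STAR 2.7.1a, Trimmomatic 0.35 and DESeq2 1.30.1, with no role or order. Values were tested with limma 3.58.1 (R 4.3.3, trend) on log2(FPKM + 1), which understates changes of low genes, for the 15365 genes averaging 1 FPKM or more, in a fit of all 8 libraries with 1 mean for each group, without a replicate block (4 residual degrees of freedom, prior 2.69), Benjamini-Hochberg adjusted over all genes and called under 0.05. Every size-factor-divided value was a whole multiple of 1 read (100% of values, tolerance 0.001), so whole reads were recovered from the deposited signal and tested with edgeR 4.0.16 (quasi-likelihood, TMM and RLE) and DESeq2 1.42.0 as alternatives. The script was tested on simulated data. Nothing in the labels says that replicates came from separate cultures, so p-values measure the spread between these libraries, which may be technical. The 8 far genes, 5 lists of lipid genes and 9 tissue or stage marker lists were chosen with earlier results of these data known. Named genes were all far genes, the mutated genes, the 3 nearest profiles of each tested far gene, and per lipid list the 2 with the highest mean FPKM and those called in the interaction, and lists are further described by other members called. Of the marker symbols, opt-2 matched no gene. The marker list not described in the report was for coelomocytes, with summed FPKM of 4.76 to 17.8 over the 8 libraries, where limma called 0 of 2 tested genes in any comparison (0 at an unadjusted p under 0.05) and edgeR 1 of 3, with stage in hzl-1 daf-2. List counts and medians without the first hzl-1 daf-2 dauer library, and the hypodermal sum without col-19, were added after seeing the data. No genome sequence was used here.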

Additional observations from a re-analysis of the deposited data

Results flagged for a closer look

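The stage change of far-6 differed between the genotypes in the test of the difference itself, at 1.89 (log2, limma adjusted p = 0.00406), with a fall in hzl-1 daf-2 and a rise in hzl-1 aak(0). Both hzl-1 aak(0) post-dauer libraries were higher than both dauer libraries of that genotype, and both hzl-1 daf-2 post-dauer libraries were lower than both of theirs. The stage change of far-2 differed by -1.42 (log2, limma adjusted p = 0.0250), a rise in both genotypes that was smaller on the log scale in hzl-1 aak(0), where far-2 was already higher in dauers. Groups of n = 2 are too small for a check of single libraries as outliers.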

How the results depend on the processing

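Of the 588 recomputed log2 values of far genes, 502 kept their direction and side of the threshold, 39 lost a call, 17 gained one and 30 changed sign. The values that changed sign were not called in the fit reported above. In the genotype comparison of dauers, far-1 turned to -0.093 after centring on the median gene, -0.052 with edgeR RLE and -0.044 with DESeq2. There far-5 turned to -0.087 after centring and to -0.042, -0.11 and -0.11 with edgeR TMM, edgeR RLE and DESeq2, far-6 to -0.37, -0.23, -0.33 and -0.32 under the same 4, and far-7 to 0.048 after rescaling to equal sums. After rescaling far-5 also turned to 0.11 for stage in hzl-1 daf-2 and to -0.030 for genotype in post-dauers, and its interaction was 0.12 after centring and 0.33, 0.36 and 0.35 with edgeR TMM, edgeR RLE and DESeq2. The scalings differ in where they set the median gene, and the cause of the sign changes was not tested. Relative to the median gene, far-5 was at -0.52 with limma and -0.94 with edgeR TMM for stage in hzl-1 daf-2. In the interaction it was at 0.15 and 0.40. Leaving out 1 library at a time, far-5 ran from -0.71 to 0.34 and from -0.76 to 0.0028 for stage, from -0.066 to 0.99 and from -0.11 to 0.65 for genotype in dauers and post-dauers, and from -0.72 to 0.34 in the interaction. In the same runs far-7 ran from -0.29 to 0.27 for genotype in dauers and far-3 from -0.038 to 0.91 for genotype in post-dauers.

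The replicate numbers were not treated as pairs. Correlations of deviations between same-numbered libraries ran from -0.258 to 0.0147. With n = 2 the deviations within a group mirror each other, so these values cannot show whether libraries were paired. The number of members called for genotype in dauers, 2, became 1 with a replicate block or with only the groups compared, 3 after centring or with DESeq2 (far-8 lower), 3 without the filter (far-4 lower), 4 with edgeR TMM or RLE (both lower), and 1 to 2 with a library left out. For genotype in post-dauers, 2 became 1 with a pseudocount of 0.1, without the filter, after rescaling, after centring, with the replicate block, with only the groups compared and with edgeR TMM or RLE, and 1 to 3 with a library left out. With a library left out the counts were 4 to 6 for stage in hzl-1 daf-2, 2 to 4 for stage in hzl-1 aak(0) and 1 to 3 for the interaction, which has no fit on fewer groups. Over all genes, the 716 calls for genotype in post-dauers became 354 after rescaling, 367 with the replicate block, 147 with only the groups compared, 1076 with DESeq2 and 95 to 1780 with a library left out. The 1743 interaction calls became 1044 with the replicate block and 352 to 3947 with a library left out. The 4464 calls for genotype in dauers became 1309 to 5350, and the 8130 for stage in hzl-1 aak(0) became 5004 to 8742. With 2 libraries a group, differences near the size of the replicate spread could not be told from none, and far-4 rested on 4 to 22 reads.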
